A study of Homo sapiens with 6 samples.

Results

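The EGF receptor family and its ligands were examined in H226 cells depleted of the lncRNA *SWINGN*. The 7 genes are the receptors *EGFR*, *ERBB2* and *ERBB3* and the ligands *AREG*, *EREG*, *HBEGF* and *TGFA*, and they were chosen by name from the table of read counts, which holds 17222 gene names. A row was found for 6 of the 7, the 3 receptors and 3 of the 4 ligands, and all 6 passed the filter on low counts along with 14660 genes in total. *EREG*, the ligand epiregulin, was not analysed here.

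H226 is an established human line that the study describes as a squamous carcinoma of the lung. Cells were transfected at 50 nM either with ASO_CTRL, a control antisense oligonucleotide, or with ASO_LINC#3, which is directed against *SWINGN*, and RNA was taken 48 h later from 3 replicates of each condition (called ASO_CTRL and ASO_LINC here). In these data the knockdown rests on 1 oligonucleotide in 1 cell line. The level of *SWINGN* was not analysed here, so the depletion was not checked in these libraries. The study itself measured *SWINGN* by RT-qPCR in depleted H226 cells. The study describes its experiments in general as biological triplicates, and the labels of these samples do not say what separates the replicates, so the p-values measure the spread between these libraries. Reads counted on genes ranged from 3686828 to 10546786 per library. ASO_LINC replicate 3 was the shallowest library and stood apart from the other two of its condition: a chi-square of the gene counts, divided by its degrees of freedom, was 2.5 for ASO_LINC replicates 1 and 2, 13.0 and 14 for their pairs with replicate 3, and 6.94 to 11.9 for the ASO_CTRL pairs. The share of reads that were not aligned also differed between conditions, from 13.2% to 14.1% in ASO_CTRL and from 15.8% to 16.4% in ASO_LINC. Its part in the results was not tested.

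The ligands of this family are made as precursors anchored in the plasma membrane and are released by metalloproteases of the ADAM group. AREG, HBEGF, TGFA and EREG all bind EGFR, which then pairs with a second EGFR molecule or with another member of the family and phosphorylates its own tail. ERBB2 has no known soluble ligand and acts as a partner, whereas ERBB3 binds neuregulins, has little kinase activity of its own and recruits PI3K. Downstream, the RAS-ERK cascade induces transcription factors and a set of inhibitors of the same pathway. EGFR is often abundant in squamous carcinoma of the lung.

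The sequences just upstream of the transcription starts of the 3 measured ligands are shown because these were the members called higher after the knockdown. They are the 250 bases before the start in the RefSeq table of GRCh38.p14, 5′ to 3′ on the strand of the gene, at chr4:74444886-74445135 (+) for *AREG*, chr5:140346604-140346853 (-) for *HBEGF* and chr2:70553827-70554076 (-) for the first of 2 entries of *TGFA*. Capitals mark matches, on either strand, to the motifs that were searched. These were the AP-1 motif, spelled TGANTCA, and the cyclic AMP response element (CRE), spelled TGACGTCA. The GC box, spelled GGGCGG, and the TATA box, spelled TATAAA, were searched as well.
AREG: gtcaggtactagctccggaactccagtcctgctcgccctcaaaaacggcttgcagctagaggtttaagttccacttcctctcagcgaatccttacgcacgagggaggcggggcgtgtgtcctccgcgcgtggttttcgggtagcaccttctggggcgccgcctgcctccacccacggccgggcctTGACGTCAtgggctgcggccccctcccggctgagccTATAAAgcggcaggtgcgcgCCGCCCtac
HBEGF: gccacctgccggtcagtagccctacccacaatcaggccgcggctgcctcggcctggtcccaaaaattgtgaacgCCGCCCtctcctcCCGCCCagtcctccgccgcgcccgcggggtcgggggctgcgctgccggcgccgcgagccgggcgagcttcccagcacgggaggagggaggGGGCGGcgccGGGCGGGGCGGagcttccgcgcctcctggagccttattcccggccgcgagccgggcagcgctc
TGFA: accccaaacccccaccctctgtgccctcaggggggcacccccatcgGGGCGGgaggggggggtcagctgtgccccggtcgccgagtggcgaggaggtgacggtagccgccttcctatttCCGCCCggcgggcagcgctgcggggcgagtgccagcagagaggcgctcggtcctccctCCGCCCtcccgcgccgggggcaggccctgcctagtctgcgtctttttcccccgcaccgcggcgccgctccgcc
The *AREG* sequence holds a CRE from -65 to -58 and a TATA box from -29 to -24, counted back from the start, and a GC box from -9 to -4. The *HBEGF* sequence holds 5 GC boxes, of which the last 2 share a base, and that of *TGFA* holds 3. Neither holds one of the other motifs in this window. The second entry of *TGFA*, at chr2:70553447-70553696 (-), holds no match to any of the motifs searched. Among all 35116 promoters of the table, 1.65% hold the CRE, 10.7% the TATA box, 42.6% the GC box and 6.57% the AP-1 motif, so a GC box is common and the CRE is rare. A match describes letters only and does not show that a factor was bound.

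Of the 6 measured members, 4 were called at the study's thresholds, which ask for a log2 fold change of more than 0.5 in size and for an adjusted p under 0.01. These calls were all 3 ligands, which were higher in ASO_LINC, and 1 of the 3 receptors, *ERBB3*, which was lower. Across all tested genes 7.54% were called, 4.91% higher and 2.63% lower, and the median log2 fold change was -0.00. The libraries of the 2 conditions did not overlap for 5 of the 6 members, compared with 36.1% of all tested genes, and *EGFR* was the exception. With 3 libraries against 3, the smallest two-sided p of an exact permutation test is 0.1, and each of these 5 genes reached it.

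Among the ligands, *HBEGF* encodes heparin-binding EGF-like growth factor, which binds both EGFR and ERBB4 (GRCh37 chr5:139712428-139726188, minus strand). Levels are given as CPM, the reads of a gene per 1000000 reads counted on genes after scaling, always in the order of replicates 1, 2 and 3. *HBEGF* was at 54.8, 44.9 and 56.5 CPM in ASO_CTRL and at 104.8, 123.0 and 110.9 CPM in ASO_LINC. All knockdown libraries lay well above all control libraries and close to each other. The mean rose from 52.1 ± 6.25 to 113 ± 9.29 CPM (SD, n = 3 each), and the fitted log2 fold change was 1.11, or 2.16-fold (SE 0.14, 95% interval 0.80 to 1.43, edgeR adjusted p = 0.00056). It was 1.12 without ASO_LINC replicate 3, and *HBEGF* was called under each of 17 alternative settings, with log2 fold changes from 1.03 to 1.17.

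*TGFA* encodes transforming growth factor alpha, a ligand of EGFR (chr2:70674416-70781325, minus strand). It had 10.9, 14.1 and 12.4 CPM in the control libraries and 39.1, 35.1 and 23.9 CPM in the knockdown libraries. The conditions did not overlap, and ASO_LINC replicate 3 was the lowest of the knockdown libraries. The mean rose from 12.5 ± 1.60 to 32.7 ± 7.90 CPM (SD, n = 3 each), with a fitted log2 fold change of 1.41, or 2.65-fold (SE 0.21, 95% interval 0.95 to 1.86, edgeR adjusted p = 0.00129). Without ASO_LINC replicate 3 the change was 1.58, and without ASO_CTRL replicate 3 it was 1.4 but no longer passed, with an adjusted p of 0.0124.

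*AREG* encodes amphiregulin, which binds EGFR (chr4:75310853-75320722, plus strand). It had the fewest reads of the measured members, with 6, 6 and 11 reads in the control libraries and 27, 23 and 12 reads in the knockdown libraries. After scaling for depth these corresponded to 0.81, 1.03 and 1.05 CPM in ASO_CTRL and 3.97, 3.94 and 3.25 CPM in ASO_LINC, so the shallow ASO_LINC replicate 3 was again above every control. The mean rose from 0.96 ± 0.13 to 3.72 ± 0.40 CPM (SD, n = 3 each), and the fitted log2 fold change was 1.94, or 3.84-fold (SE 0.31, 95% interval 1.25 to 2.63, edgeR adjusted p = 0.00213). The call was lost when any library other than ASO_LINC replicate 3 was left out. The edgeR adjusted p of *AREG* was 0.0139, 0.0105 and 0.0179 without ASO_CTRL replicates 1, 2 and 3. Without ASO_LINC replicates 1 and 2 it was 0.0169 and 0.0120. Calls in the whole table also fell in these fits, from 1106 to between 359 and 531, and the cause was not tested.

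The reads of *AREG* are also uncertain because the annotation lists a near-identical copy, *AREGB* (chr4:75480629-75490486). Of the 1160 stretches of 75 bases in the main *AREG* transcript, 1085 (93.5%) occur in transcripts of *AREGB*. How reads matching both genes were counted is not given in the sources used here, so few reads need not mean a low level. *AREGB* had 7, 12 and 15 reads in ASO_CTRL and 20, 5 and 10 reads in ASO_LINC, with overlapping conditions and a log2 fold change of 0.56 (SE 0.48, edgeR adjusted p = 0.443). When the reads of the 2 genes were summed, a setting chosen after seeing the data, the log2 fold change was 1.28 and the adjusted p of 0.0118 did not pass. The increase in *AREG* therefore had the same direction with and without the copy, whereas its call did not hold with it.

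**Figure D1:**
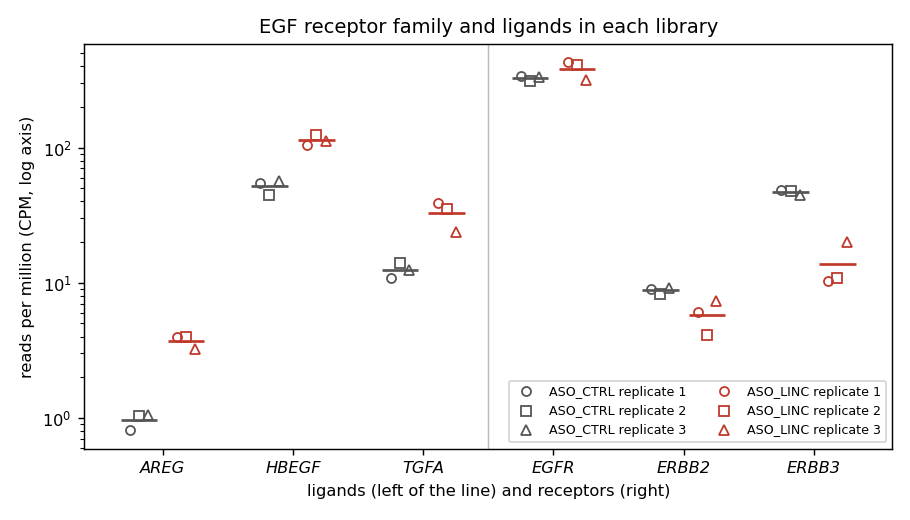
CPM (log axis) of the 6 measured members in each of the 3 ASO_CTRL and 3 ASO_LINC libraries, with 1 point per library and a bar at the mean of each condition. The conditions are separated for *HBEGF*, *TGFA*, *AREG*, *ERBB3* and *ERBB2* and overlap for *EGFR*.

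Among the receptors, *ERBB3* (chr12:56470583-56497289, plus strand) had 48.6, 47.8 and 44.8 CPM in ASO_CTRL and 10.3, 10.8 and 20.1 CPM in ASO_LINC. The control libraries were nearly equal, and ASO_LINC replicate 3 lay between them and the other knockdown libraries. The mean fell from 47.1 ± 2.0 to 13.7 ± 5.51 CPM (SD, n = 3 each), with a fitted log2 fold change of -1.82, or 3.54-fold lower (SE 0.23, 95% interval -2.33 to -1.32, edgeR adjusted p = 0.000533). Without ASO_LINC replicate 3 it was -2.16. *ERBB3* was called under all 17 alternative settings, with log2 fold changes from -2.16 to -1.64.

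*ERBB2* (chr17:37844167-37886679, plus strand) was measured at 9.02, 8.26 and 9.16 CPM in ASO_CTRL and at 6.03, 4.11 and 7.32 CPM in ASO_LINC. Every knockdown library was below every control library, but the knockdown libraries held only 24 to 41 reads each. The mean was 8.81 ± 0.48 CPM in ASO_CTRL and 5.82 ± 1.62 CPM in ASO_LINC (SD, n = 3 each), and the log2 fold change of -0.63 (SE 0.24, 95% interval -1.16 to -0.10, edgeR adjusted p = 0.0897) did not pass. Without ASO_LINC replicate 3 it was -0.79, with an adjusted p of 0.0220. The opposite-strand genes *PGAP3* and *MIEN1* share 1.4% and 5.53% of the exonic bases of *ERBB2*, and since the strand setting of the counting is not given in the sources used here, some of these reads cannot be told apart.

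*EGFR* (chr7:55086710-55279321, plus strand) was the most abundant of the receptors, at 335.5, 309.6 and 331.3 CPM in ASO_CTRL and 426.6, 406.4 and 316.7 CPM in ASO_LINC. ASO_LINC replicates 1 and 2 were above all controls, and replicate 3 was within their range. The mean was 325.5 ± 13.9 CPM in ASO_CTRL and 383.2 ± 58.5 CPM in ASO_LINC (SD, n = 3 each). The log2 fold change of 0.24 (SE 0.14, 95% interval -0.07 to 0.54, edgeR adjusted p = 0.265) did not pass. Without ASO_LINC replicate 3 the change was 0.36, with an adjusted p of 0.0176.

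**Figure D2:**
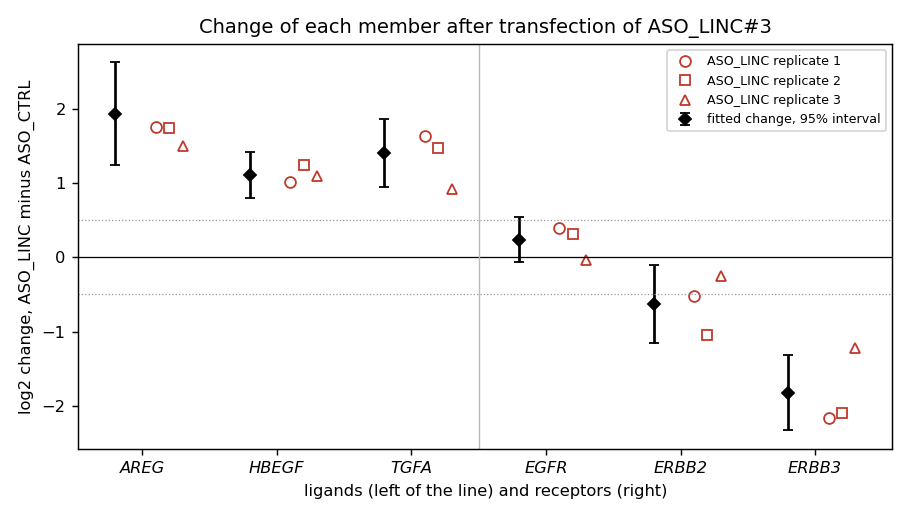
Log2 fold change of each measured member, ASO_LINC over ASO_CTRL, with its 95% interval from edgeR (black diamond and bar) and the change of each of the 3 ASO_LINC libraries against the control mean (open red symbols), with dotted lines at the bound of 0.5 in either direction. The 3 ligands lie above 1, from 1.11 to 1.94, *ERBB3* lies at -1.82, and the interval of *EGFR* crosses 0.

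Ligands and receptors were then set against each other. The mean log2 fold change was 1.49 over the 3 ligands and -0.74 over the 3 receptors, a difference of 2.23. Per library, the mean log2 CPM of the ligands minus that of the receptors was -2.60, -2.40 and -2.40 in ASO_CTRL and -0.23, -0.03 and -0.79 in ASO_LINC. The difference was thus smaller in size in every knockdown library, by more than the spread within either condition (0.12 SD in ASO_CTRL and 0.39 SD in ASO_LINC). It remained between 2.0 and 2.44 under the alternatives. These values describe members chosen with results known and carry no test, and with 3 receptors that did not move alike their mean rests largely on *ERBB3*.

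Among the ratios of single genes given here, those with *ERBB3* changed most, which follows from the fold changes above. There were 1.13, 0.94 and 1.26 *HBEGF* reads for each *ERBB3* read in ASO_CTRL and 10.2, 11.4 and 5.53 in ASO_LINC. The corresponding values of *TGFA* per *ERBB3* read were 0.22, 0.29 and 0.28 against 3.80, 3.25 and 1.19. Relative to *EGFR*, *HBEGF* had 0.16, 0.15 and 0.17 reads per *EGFR* read in ASO_CTRL and 0.25, 0.30 and 0.35 in ASO_LINC. The conditions did not overlap for any of these ratios. For the ratios with *ERBB3* this follows from the separation of each gene.

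Within the receptors, *EGFR* took 85.3%, 84.7% and 86.0% of the reads of the 3 genes in ASO_CTRL and 96.3%, 96.5% and 92.0% in ASO_LINC. The share of *ERBB3* was 12.4%, 13.1% and 11.6% in ASO_CTRL and 2.32%, 2.56% and 5.83% in ASO_LINC. *ERBB2* held 2.30%, 2.26% and 2.38%, then 1.36%, 0.97% and 2.13%. The receptor reads were thus mostly from *EGFR* in both conditions, and more so after the knockdown.

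Levels of different genes were compared as CPM per kilobase of the main transcript. In ASO_CTRL the order was *EGFR* at 32.9 (lowest library 31.3, highest 33.9), *HBEGF* at 22.1 (19.0 to 24.0), *ERBB3* at 8.39 (7.99 to 8.66), *TGFA* at 3.03 (2.65 to 3.43) and *ERBB2* at 1.93 (1.81 to 2.01). No neighbours in this order overlapped. In ASO_LINC it was *HBEGF* at 47.9 (44.4 to 52.2), *EGFR* at 38.7 (32 to 43.1), *TGFA* at 7.94 (5.79 to 9.50), *ERBB3* at 2.44 (1.83 to 3.57) and *ERBB2* at 1.28 (0.90 to 1.61). On this scale *HBEGF* thus stood above *EGFR* and *TGFA* above *ERBB3*, the reverse of the control order. The ranges of these neighbours did not overlap. The reversal of *HBEGF* and *EGFR* rests on the division by length. In CPM, *EGFR* stayed above *HBEGF* in ASO_LINC, with means of 383.2 and 113. *TGFA* was above *ERBB3* in CPM too, at 32.7 and 13.7. Whether reads scaled with transcript length in these libraries was not tested. The order was the same when the union of all exons was used as the length. That length grows relatively more for *EGFR* than for *HBEGF* and for *ERBB3* than for *TGFA*. It therefore could not have undone their order in ASO_LINC, and a shorter *EGFR* transcript was not tried. *AREG* was left out of the order because of its copy.

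**Figure D3:**
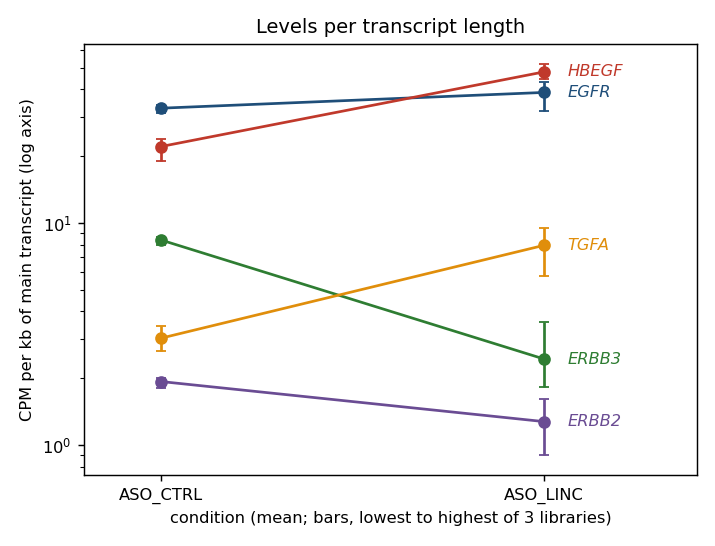
CPM per kilobase of the main transcript (log axis) of 5 members in ASO_CTRL and ASO_LINC, with a point at the mean of the 3 libraries, a bar from the lowest to the highest library and a line joining the conditions. On this scale *HBEGF* passes *EGFR* and *TGFA* passes *ERBB3* from one condition to the other. Without the division by length, *EGFR* stays above *HBEGF* in both conditions.

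The remaining genes of the family were looked at next. Of 8 further receptors and ligands, 2 had a row, the neuregulins *NRG1* and *NRG2*, and *ERBB4*, *EGF*, *BTC*, *EPGN*, *NRG3* and *NRG4* were not analysed here. *NRG1*, a ligand of ERBB3 and ERBB4, was at 14.2 ± 0.92 CPM in ASO_CTRL and 11.3 ± 0.93 CPM in ASO_LINC (SD, n = 3 each), with a log2 fold change of -0.32 (edgeR adjusted p = 0.222). *NRG2*, another neuregulin, was at 2.61 ± 0.44 and 2.19 ± 0.52 CPM (log2 fold change -0.22, edgeR adjusted p = 0.667). Neither gene was called by edgeR, DESeq2 or limma-voom, and 0 of the 2 had an unadjusted edgeR p below 0.05.

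In the list of genes for ligand release and trafficking, 4 of 16 tested genes were called, all higher. Over all tested genes 4.91% were called higher, and the median log2 fold change of the list was 0.34. *ADAM19*, a metalloprotease of the group that cleaves such precursors, rose from 9.84 ± 1.56 to 25.1 ± 4.2 CPM (log2 fold change 1.35, edgeR adjusted p = 0.00117). *RHBDF1*, an inactive rhomboid protein that carries ADAM17 to the cell surface, rose from 42.5 ± 1.84 to 74.8 ± 4.62 CPM (log2 fold change 0.82, edgeR adjusted p = 0.00192). The tetraspanins *TSPAN14*, a partner of ADAM10, and *CD9* rose with log2 fold changes of 0.90 (edgeR adjusted p = 0.000793) and 0.57 (edgeR adjusted p = 0.00761). The main sheddases themselves, named after their values were seen, had log2 fold changes of 0.16 for *ADAM17* (edgeR adjusted p = 0.398) and 0.06 for *ADAM10* (edgeR adjusted p = 0.867) and did not pass. The count of 4 became 2, 2 and 1 without ASO_CTRL replicates 1, 2 and 3, 2 and 3 without ASO_LINC replicates 1 and 2, and 5 without ASO_LINC replicate 3. The whole table moved the same way, with 1106 genes called from all libraries and 2616 without ASO_LINC replicate 3. Without any 1 other library, 359 to 531 genes were called.

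Among the adaptors and the RAS-ERK cascade, 1 of 18 tested genes passed and the median log2 fold change was 0.06, and in the PI3K-AKT, PLCG and STAT arms 1 of 13 passed with a median of 0.05. Both counts were near the 7.54% called over all tested genes. The called gene of the cascade was *MAP2K1*, the kinase directly above ERK, with 81.2, 69.7 and 83.9 CPM in ASO_CTRL and 231.3, 267.3 and 170.0 CPM in ASO_LINC (log2 fold change 1.51, SE 0.17, edgeR adjusted p = 0.000312). Without ASO_LINC replicate 3 its list had 2 calls. The called gene of the other arms was the kinase *JAK1*, at 39.9 ± 3.70 and 65.9 ± 0.31 CPM (SD, n = 3 each; log2 fold change 0.72, edgeR adjusted p = 0.0044). No gene of these arms was called by edgeR when any 1 library other than ASO_LINC replicate 3 was left out or with the replicate number as a block, and 5 were called without that replicate.

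Of the inhibitors of the receptors and the genes for their turnover, 3 of 18 tested were called, all higher, with a median of 0.24, against 4.91% called higher over all tested genes. *ERRFI1* encodes MIG6, which binds the EGFR kinase and blocks it and which is itself induced by EGF. It had 16.8, 18.2 and 17.6 CPM in ASO_CTRL and 88.5, 103.2 and 64.5 CPM in ASO_LINC, a log2 fold change of 2.29 (SE 0.18, edgeR adjusted p = 3.298e-05). *CBL*, the ubiquitin ligase that marks activated EGFR for degradation, rose with a log2 fold change of 0.59 (edgeR adjusted p = 0.00818), and *PTPN12*, a phosphatase, with 0.77 (edgeR adjusted p = 0.00987). The count was 1, a share near that of all genes, when any 1 library other than ASO_LINC replicate 3 was left out and 5 without that replicate, and it was 1 with the upper-quartile scaling and with the replicate number as a block.

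The transcripts that ERK activity is known to control moved in greater number. Of 10 tested, 8 were called higher and 1 lower, against 4.91% higher and 2.63% lower over all tested genes. The median log2 fold change of the list was 1.26. The phosphatase *DUSP6*, which inactivates ERK, had 4.85, 3.10 and 3.15 CPM in ASO_CTRL and 43.1, 43.1 and 26.8 CPM in ASO_LINC, a log2 fold change of 3.36 (SE 0.26, edgeR adjusted p = 2.771e-05). A second phosphatase, *DUSP4*, was at 24.4, 20.8 and 19.4 CPM against 88.8, 98.2 and 65.9 CPM (log2 fold change 1.98, edgeR adjusted p = 7.112e-05). *PHLDA1* rose from 168 ± 12.1 to 694 ± 58.1 CPM (log2 fold change 2.04, edgeR adjusted p = 7.533e-06).

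The other increases in that list were in *SPRY4* (log2 fold change 1.5) and *SPRY2* (1.18), inhibitors of receptor signalling, in *ETV4* (1.33) and *ETV5* (0.95), transcription factors of the ETS family, and in the ephrin receptor *EPHA2* (0.66, edgeR adjusted p = 0.0061). *EPHA4*, a second ephrin receptor, went the other way, from 33.8 ± 0.43 to 14.3 ± 1.78 CPM (log2 fold change -1.24, edgeR adjusted p = 0.00056). *CCND1*, the cyclin of the G1 phase, had a log2 fold change of -0.05 (edgeR adjusted p = 0.850). From 6 to 9 of the 10 were called when a library was left out. The lists, like the members, were chosen with earlier results of these data known, so their counts are descriptions.

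**Figure D4:**
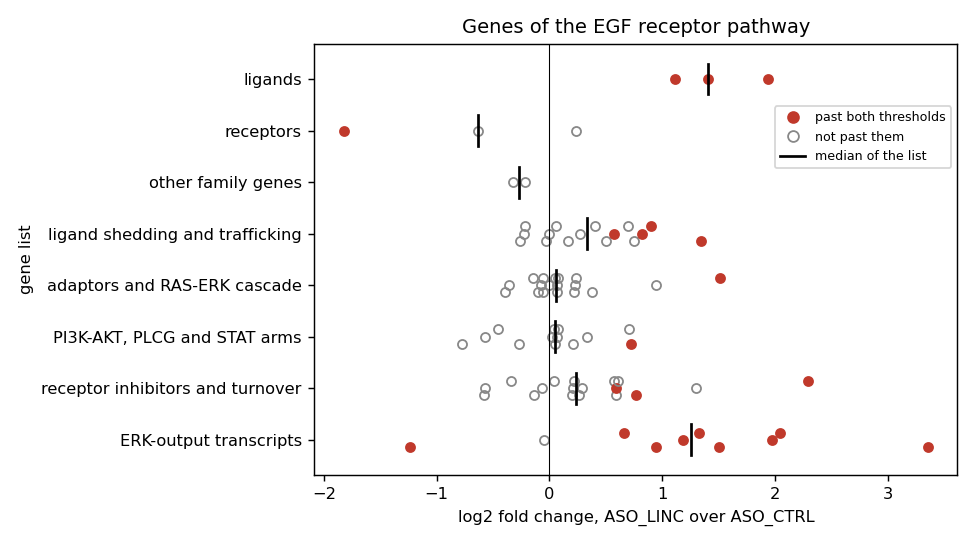
Log2 fold change of every tested member and every tested gene of the pathway lists, ASO_LINC over ASO_CTRL, 1 point per gene, filled where the gene passed both thresholds, with a black bar at the median of each list. The medians of the ligands (1.41) and of the ERK-output transcripts (1.26) lie furthest to the right, and those of the 2 signalling lists lie at 0.06 and 0.05.

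The genes whose profile over the 6 libraries was most like that of each called member were taken from those with a mean of at least 50 counts, by the root mean square difference of log2 CPM after centring on the control mean. For *HBEGF* they were *SPRED2*, an inhibitor of the RAS-ERK cascade (difference 0.05), *MYO1E* (0.07) and the ferritin pseudogene *FTH1P20* (0.08), whose reads may not be told apart from those of its parent gene. For *TGFA* they were *KLF4* (0.08), *VNN1* (0.09) and *P4HA1* (0.10), and for *AREG* they were *FUT11* (0.09), *INSIG2* (0.14) and *NMNAT2* (0.15). *ERBB3* was most like *FASN*, the fatty acid synthase (0.13), *NNMT* (0.14) and the cadherin *CDH6* (0.17), which had log2 fold changes of -1.81, -1.61 and -1.96. These genes were picked for the smallest differences among 10220 or 10221 genes, so small values follow from the choice.

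Marker genes were looked at as a check of the labelled cell type, and they are given beside the members because several moved with the knockdown. Of the squamous markers, *TP63*, *SOX2*, *KRT14*, *DSG3* and *PKP1* were not analysed here, *KRT6A* had at most 14 reads, and *KRT5* was at 103 ± 12.3 CPM in ASO_CTRL and 69.0 ± 7.87 CPM in ASO_LINC (SD, n = 3 each). The simple epithelial keratins *KRT7*, *KRT8*, *KRT18* and *KRT19* summed to 11696 to 12642 CPM in ASO_CTRL and 7103 to 12434 CPM in ASO_LINC, and none of these 4 was called. The 7 squamous markers with a row summed to 336 to 384 CPM and 309 to 329 CPM, with 1 of 5 tested called, lower. The 6 mesothelial markers summed to 878 to 1077 CPM and 318 to 454 CPM, with 2 of 6 called, both lower. The 5 fibroblast markers with a row summed to 409 to 506 CPM and 228 to 258 CPM, with 3 of 4 tested called, all lower. These 3 were *COL1A1*, *COL3A1* and *PDGFRB*, with log2 fold changes of -1.36, -1.58 and -1.53. The study measured *COL1A1* and *PDGFRB* in H226 itself and reports that inducing *SWINGN* raised both. The 3 blood and endothelial markers with a row summed to at most 11 CPM in ASO_CTRL and 10.8 CPM in ASO_LINC, with 1 of 3 called, *KDR*, lower (log2 fold change -1.29, edgeR adjusted p = 0.00571), while the macrophage marker *CD68* at 1.54 (edgeR adjusted p = 0.0265) did not pass. The squamous label thus rested on few abundant markers, and simple keratins were the most abundant. In ASO_CTRL the mesothelial markers also summed to more than the squamous ones, with *CALB2* alone at 601 ± 91.7 CPM (SD, n = 3). The ranges of these 2 sums overlapped in ASO_LINC. In bulk RNA, fewer cells of a kind and less RNA per cell cannot be told apart, and the part of these shifts in the changes of the members was not tested.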

How the data were processed

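RNA from 6 transfected H226 samples, 3 ASO_CTRL and 3 ASO_LINC, was copied into cDNA with oligo-dT primers and sequenced. Per the labels and the methods, the authors aligned single reads with STAR to hg19 and deposited raw counts per gene name, without normalization. The labels name H226 as the cells, which is followed here, although the methods text names BJ cells for this RNA-seq. The counting tool and its strand setting are not given in the sources used here. Reads assigned to no gene (24.8% to 28.1% of each total) entered neither the library sizes nor the tests.

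The 14660 genes passing filterByExpr were scaled by TMM and compared in R 4.3.3 with the quasi-likelihood F-test of edgeR 4.0.16, with no replicate block and Benjamini-Hochberg adjustment over all genes. CPM use these scaled library sizes, and a prior count of 2 was added before taking log2 of single libraries. Each 1 CPM corresponded to 3.69 to 10.5 reads. The common biological coefficient of variation was 0.16. Alternatives were DESeq2 1.42.0, limma-voom (limma 3.58.1), other scalings, filters and thresholds, glmTreat, the replicate block and leaving out each library. The fits were tested on simulated data.

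The members and gene lists were chosen with earlier results of these data known. Named were all members, up to 4 called genes with the smallest p-values per pathway list, every ERK-output and further family gene, the 3 genes most like each called member and the nearest tested neighbours. The annotation was a GENCODE release placed on GRCh37, and promoters were taken from RefSeq (GRCh38.p14). A further 21 names read as dates, none of them a member.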

Additional observations from a re-analysis of the deposited data

Results flagged for a closer look

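Reads of 2 kinds outside the gene counts were more frequent in every ASO_LINC library than in every ASO_CTRL library. Reads that were not aligned made up at least 15.76% of the counts in ASO_LINC (range 15.8% to 16.4%) and 13.2% to 14.1% in ASO_CTRL. Reads aligned with too low a quality made up at least 2.168% in ASO_LINC and 2.02% to 2.15% in ASO_CTRL, so the gap between conditions was smaller than the range within either. Their part in the changes of the ligands and of *ERBB3* was not tested. No group had the 4 or more libraries needed to look for an outlying sample.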

How the results depend on the processing

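No member changed direction under any alternative. *EGFR*, *ERBB2*, *ERBB3* and *HBEGF* stayed on the same side of the thresholds under all 17. The log2 fold change of *AREG* was 1.83 to 2.02 when 1 library was left out, with the call lost in 5 of 6 cases, and 1.28, not called, when summed with *AREGB*. A minimum of 10 counts in every library removed *AREG* from the test and gave no value. *TGFA* ranged from 1.26 to 1.58 when 1 library was left out and lost its call without ASO_CTRL replicate 3. The number of members called was then 2 to 4. In the whole table, 1106 genes were called, against 2465 at an adjusted p below 0.05, 384 with glmTreat, and 359 (without ASO_CTRL replicate 3) to 2616 (without ASO_LINC replicate 3) when a library was left out. The cause was not tested, and leaving out a library also lowers the number of samples. With the replicate block 656 genes were called and the same 4 members passed. Samples with the same number showed no shared deviation (correlations 0.06, -0.15 and -0.18). These 3 values cannot exclude a pairing, which the labels do not describe. The share of calls that were higher was 65.1%, and 57.7% at an adjusted p below 0.05. Depth limits *AREG*, with 6 to 27 reads per library, most, and *ERBB2* next.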

Other observations

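The nearest tested gene on each side of the 6 measured members was looked at as well. None of these 12 neighbours was called by edgeR, DESeq2 or limma-voom. Since edgeR called 7.54% of all tested genes, the lack of a call among 12 says little. An unadjusted edgeR p below 0.05 was found for 4 of them. Such values were common, since *KRT18* with an edgeR p of 0.0473 ranked 4652 of 14660 genes. The 12 included *AREGB*, the near-identical copy of *AREG*. The log2 fold changes of the 12 ranged from -0.66 to 0.61. The lowest was that of *GRB7*, an adaptor that binds ERBB2 and lies 7.5 kb from *ERBB2* (edgeR adjusted p = 0.0365), and the highest that of *SEC61G* beside *EGFR* (edgeR adjusted p = 0.0285). *PA2G4*, which encodes a protein that binds ERBB3 and lies 1.03 kb from *ERBB3*, had a log2 fold change of -0.26 (edgeR adjusted p = 0.235).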
